A study of Mus musculus with 3 samples.

Results

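The transcripts described here are 44 genes that mark the epithelium of the mouse intestine, measured by RNA-seq in 3 populations of leukocytes sorted from that epithelium. The genes were chosen by symbol and looked up through their Ensembl identifiers, and all 44 were found among the 37224 genes counted. The rule names the genes and uses no measured value, but earlier results of these data were known when they were chosen. The libraries were iCD8a cells (CD45+ and CD8alpha+), group 1 innate lymphoid cells labelled ILC1 (NKp46+ and NK1.1+), and myeloid cells labelled CD11b+ (CD45+, CD8alpha- and CD11b+). All 3 came from RAG-2 null mice, which cannot rearrange antigen receptor genes and therefore lack mature T and B cells. No population was compared with RAG-2 sufficient mice, and no library of epithelial cells was analysed here. The sources used here give neither the ages of the mice nor whether a library held cells of 1 mouse or a pool. Each population had 1 library, so no difference below has a replicate check and no p-value was computed. Intervals are 95% exact intervals and cover counting error only.

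Intestinal epithelium is a single sheet of absorptive enterocytes interspersed with secretory cells. Enterocytes hold keratin filaments and carry a brush border of microvilli stiffened by villin. They digest sugars and peptides at that surface and package absorbed fat into lipoproteins. Goblet cells secrete the mucus layer, Paneth cells at the crypt base secrete lysozyme and other antimicrobial proteins, enteroendocrine cells release hormones, and tuft cells sense luminal chemicals. Leukocytes of the epithelium sit between these cells and are separated from them when the tissue is dissociated and sorted. Epithelial cells do not carry CD45, on which the iCD8a and CD11b+ cells were selected.

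Gene counts summed to 21678113 in iCD8a and 22181660 in ILC1, against 30511296 in CD11b+. Levels are CPM, the gene's reads scaled by its library's total over genes, so a gene without a count could have been present at up to 0.138 CPM, 0.135 CPM and 0.0983 CPM in the 3 libraries. Values given in a row of 3 follow the order iCD8a, ILC1, CD11b+, and pairs of folds are CD11b+ over iCD8a, then over ILC1. The sort markers followed the labels: Cd8a stood at 2874 CPM in iCD8a and 4.37 CPM in ILC1, against 26.1 CPM in CD11b+, and Ncr1, which encodes NKp46, at 1.57 CPM, 393 CPM and 2.06 CPM. Itgam, which encodes CD11b, was also present outside its own sort, at 394 CPM in iCD8a and 185 CPM in ILC1 against 782 CPM in CD11b+. Ptprc, the gene of the leukocyte antigen CD45, stood at 2328 CPM, 2674 CPM and 1659 CPM. The share of gene counts that fell on mitochondrially encoded genes was 1.60% in iCD8a, 2.09% in ILC1 and 9.53% in CD11b+, 5.94-fold and 4.57-fold more in CD11b+ than in the other libraries. Like the epithelial transcripts, this share was highest in CD11b+, but in iCD8a it was 0.769-fold (0.766 to 0.772) that of ILC1. Its part in the differences below was not tested.

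Every one of the 44 epithelial genes had at least 1 read in each of the 3 leukocyte libraries. Their summed level was 610.7 CPM (600.3 to 621.2) in iCD8a and 399.7 CPM (391.5 to 408.2) in ILC1, against 3194 CPM (3174 to 3214) in CD11b+, which is 0.0611%, 0.0400% and 0.319% of gene counts. A level of at least 5 CPM was reached by 21 genes in iCD8a, 22 in ILC1 and 40 in CD11b+. The iCD8a sum leaned on 1 gene: Cdh17, a cadherin of liver and intestine, made up 34.4% of it. When the genes that ranked among the 3 most abundant of any library were left out (Cdh17, Reg3b, Reg3g, Fcgbp and Anpep), the other 39 summed to 250.3 CPM, 244.4 CPM and 1739 CPM. The iCD8a and ILC1 libraries were then level, and CD11b+ stood apart from both. In bulk RNA, fewer cells of a type and less RNA per cell cannot be told apart.

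**Figure D1:**
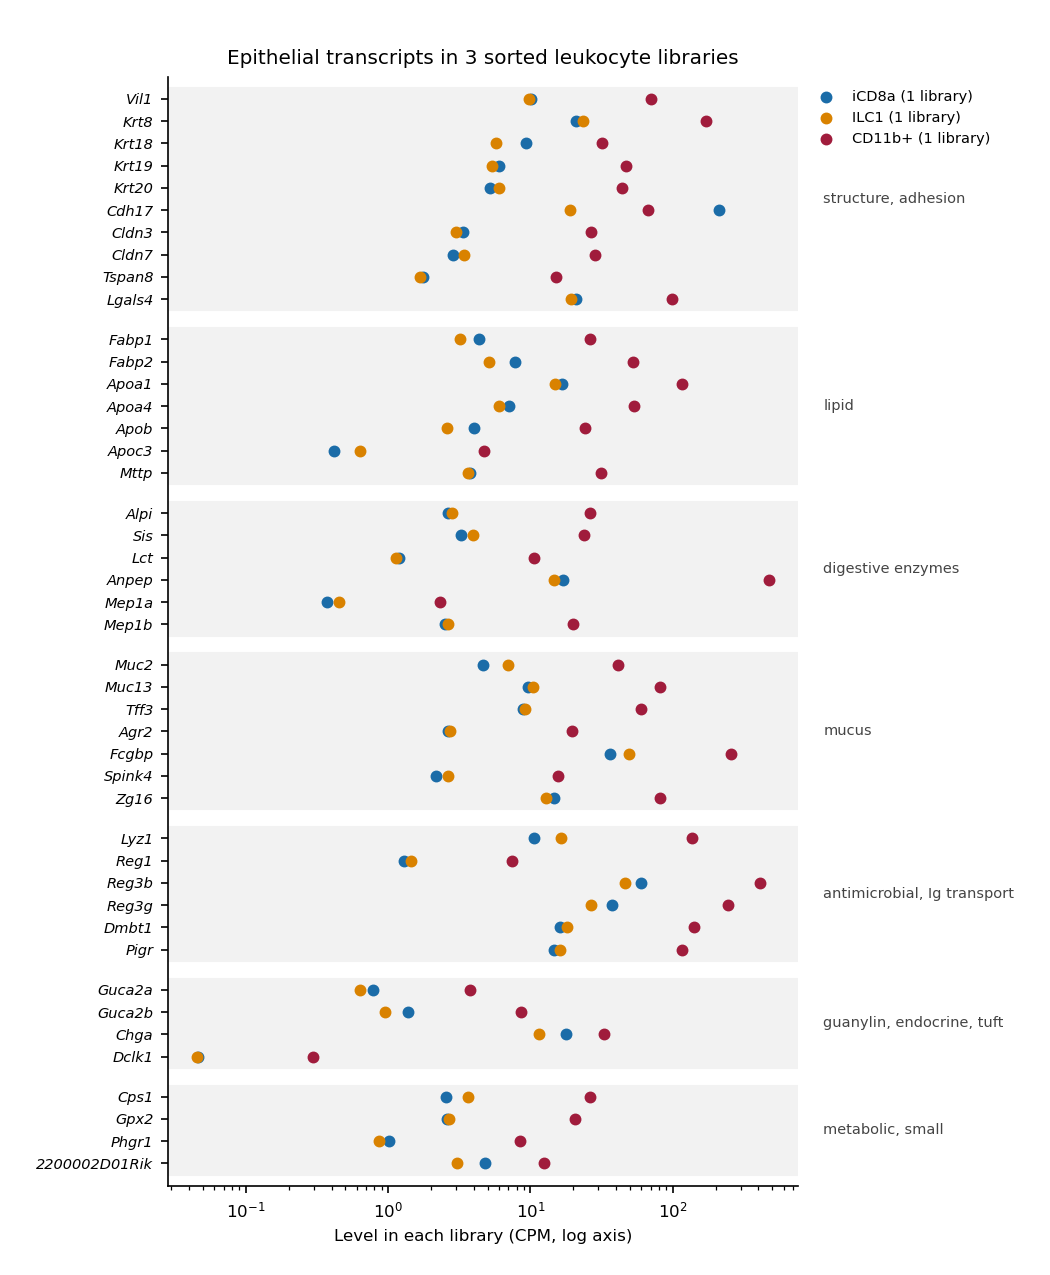
Level of each of the 44 epithelial transcripts (rows, grouped by role) in the iCD8a, ILC1 and CD11b+ libraries, in CPM on a log axis, with 1 point per library. The CD11b+ point lies to the right of both others for every gene except Cdh17, which was highest in iCD8a, and the iCD8a and ILC1 points mostly lie close together.

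To be counted as higher, a gene needed 5 CPM or more in the library where it was higher, a fold of 4 or more, and an interval whose lower bound reached 2. In all, 36 of the 44 genes were higher in CD11b+ than in iCD8a, where 12.1% of the 10828 genes at 5 CPM or more in either library were counted in the same direction. Against ILC1, 38 of the 44 were higher in CD11b+, where 12.4% of 10667 genes were. None was counted as lower in CD11b+ than in iCD8a or ILC1, against 7.57% and 6.6% of all genes. Without any threshold, 43 of the 44 genes had a higher CPM in CD11b+ than in iCD8a, Cdh17 being the exception. All 44 had a higher CPM in CD11b+ than in ILC1. Over all genes at 1 CPM or more in any library the median log2 ratios were -0.29 and -0.11, so most of those genes were not higher in CD11b+. These comparisons share the CD11b+ library, so they are not independent of each other.

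Apart from a few genes, the ratios were also of similar size. Over the 43 genes at 1 CPM or more in any library (all but Dclk1), the median log2 ratio was 2.90 for CD11b+ over iCD8a (interquartile range 2.60 to 3.09), a 7.46-fold difference. For CD11b+ over ILC1 it was 2.91 (2.59 to 3.15), a 7.54-fold difference. Over all 13632 genes at that level the medians were -0.29 and -0.11. With scaling factors from the trimmed mean of M-values (TMM), which moved the all-gene medians to -0.05 and -0.01, the medians of the epithelial genes became 3.13 and 3.01. The summed counts of the 39 genes gave folds of 6.95 (6.75 to 7.14) over iCD8a and 7.11 (6.92 to 7.32) over ILC1. Individual folds lay within 1.5-fold of these sums for 37 of 44 genes against iCD8a and for 40 of 44 against ILC1.

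**Figure D2:**
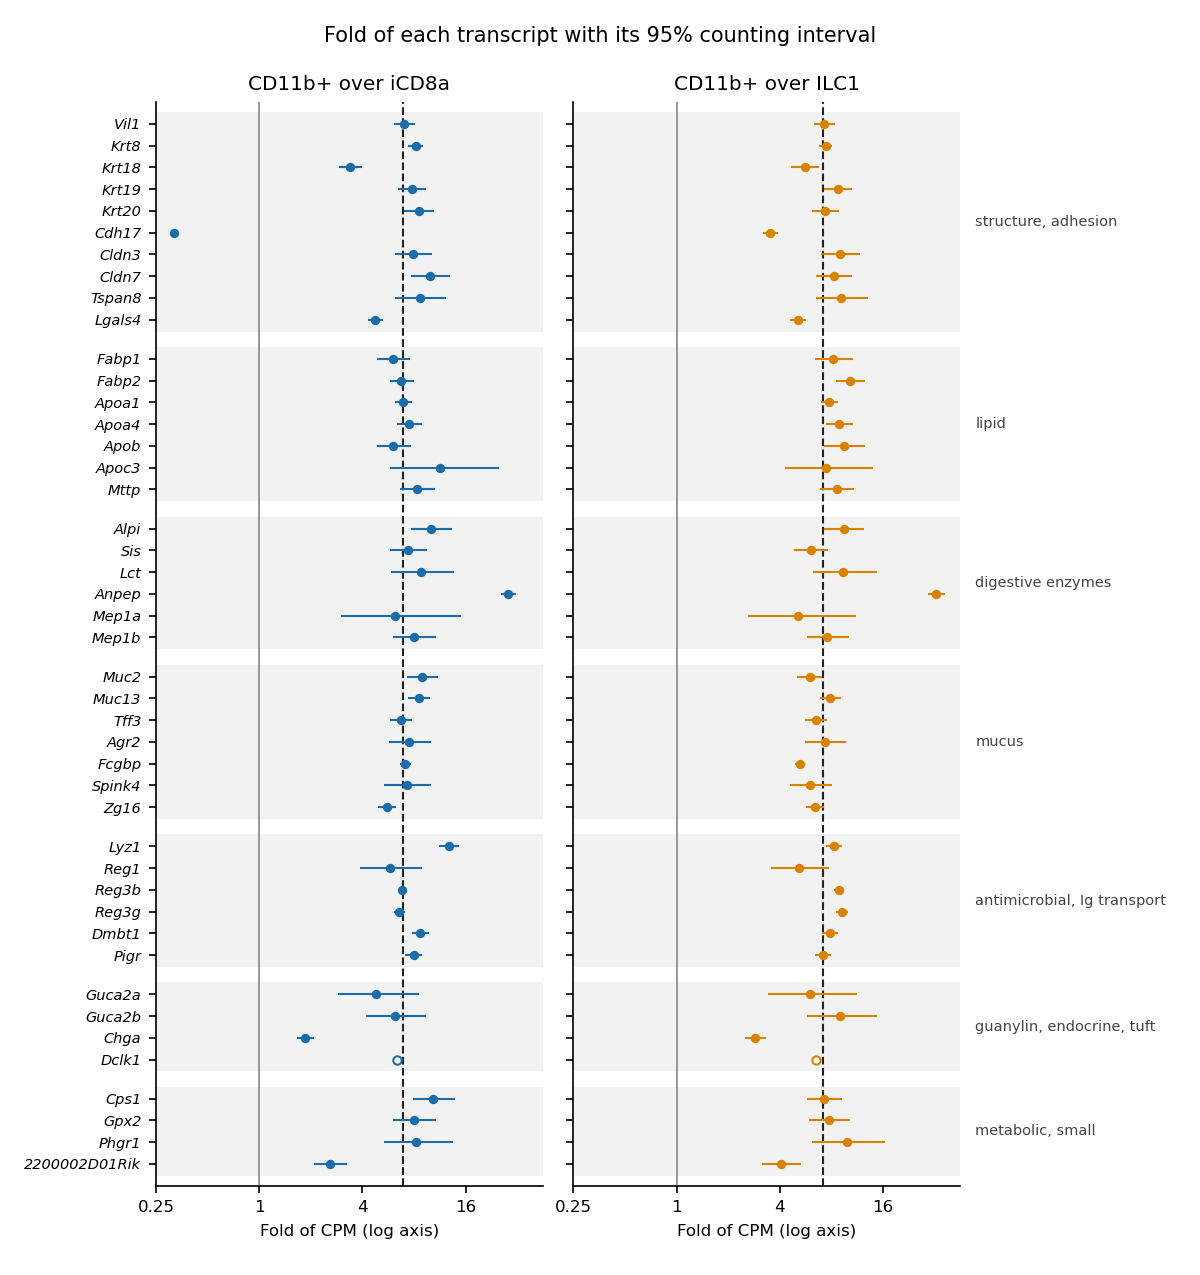
Fold of CPM in CD11b+ over iCD8a (left) and over ILC1 (right) for each transcript on a log axis, with 95% exact counting intervals as bars. The dashed line is the fold of the summed counts of 39 genes (6.95 and 7.11), the solid line is 1, and Dclk1 is an open circle without its interval because it rested on 1, 1 and 9 reads.

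Counting error covered much of the spread around these sums, though not all of it. The interval of 27 genes held the fold of 6.95 against iCD8a, 6 intervals lay below it and 11 above. Against ILC1 the fold of 7.11 was held by 28 intervals, with 7 below and 9 above. Krt18, Cdh17, Lgals4, Chga and 2200002D01Rik lay below the summed fold in both comparisons, and Alpi, Anpep and Lyz1 lay above it in both.

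Structural and adhesion genes of the epithelial sheet had folds of similar size, except Krt18, Lgals4 and Cdh17. Vil1, which encodes the microvillar actin bundler villin, stood at 10.1 CPM in iCD8a and 9.74 CPM in ILC1, against 70.8 CPM in CD11b+. Its folds in CD11b+ were 7.04 (6.12 to 8.13) and 7.27 (6.32 to 8.40). Krt8, a keratin of simple epithelia, stood at 21 CPM, 23.2 CPM and 172 CPM in the same order, 8.18-fold and 7.39-fold higher in CD11b+. Keratin genes Krt19 and Krt20 had 6.0 CPM and 5.17 CPM in iCD8a, 5.36 CPM and 6.0 CPM in ILC1, and 46.6 CPM and 44.1 CPM in CD11b+. The tight junction genes Cldn3 and Cldn7 and the tetraspanin Tspan8 were 7.92-fold, 9.89-fold and 8.64-fold higher in CD11b+ than in iCD8a. Over iCD8a, these genes ran from 7.04-fold for Vil1 to 9.89-fold for Cldn7.

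Krt18, the usual filament partner of Krt8, had a smaller fold, and over iCD8a the counting intervals of the pair did not overlap. Its levels were 9.36 CPM in iCD8a and 5.68 CPM in ILC1, against 31.8 CPM in CD11b+. The fold over iCD8a was 3.40 (2.92 to 3.97), which was not counted as a difference by the rule, and the fold over ILC1 was 5.60 (4.65 to 6.80). With TMM or DESeq2 scaling Krt18 passed the rule against iCD8a as well. Lgals4, which encodes the secreted lectin galectin-4, stood at 20.8 CPM, 19.4 CPM and 98.8 CPM, so its folds of 4.75 (4.30 to 5.26) and 5.10 (4.61 to 5.65) were smaller than those of most genes in both comparisons. In this group 8 of 10 genes were counted as higher in CD11b+ than in iCD8a and 9 of 10 than in ILC1.

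Cdh17 was the only gene of the 44 with its highest level in a lymphocyte library. It stood at 210.1 CPM (4555 reads) in iCD8a and 19.0 CPM (421 reads) in ILC1, against 66.9 CPM (2040 reads) in CD11b+. The iCD8a level was 3.14-fold (2.98 to 3.31) that of CD11b+ and 11.1-fold (10 to 12.3) that of ILC1. The ILC1 to CD11b+ step was in the usual direction, 3.52-fold (3.17 to 3.92), but below the threshold of 4.

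The rest of the epithelium's adhesion genes did not share 1 pattern. Epcam, the general epithelial adhesion molecule, stood at 168.3 CPM in iCD8a and 31.0 CPM in ILC1, against 166.7 CPM in CD11b+, close to level between CD11b+ and iCD8a by library total (0.990-fold, 0.949 to 1.03) and 5.43-fold higher in iCD8a than in ILC1. Cdh1, the gene of E-cadherin, stood at 391.5 CPM, 286.8 CPM and 192.5 CPM, lowest in CD11b+.

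Genes of fat absorption had folds over iCD8a between 6.06 and 11.3. Fabp1 and Fabp2, the fatty acid binding proteins of the enterocyte cytosol, stood at 4.34 CPM and 7.80 CPM in iCD8a, 3.20 CPM and 5.14 CPM in ILC1, and 26.3 CPM and 52.7 CPM in CD11b+. Apoa1, an apolipoprotein of high density lipoprotein, stood at 16.7 CPM, 14.9 CPM and 116 CPM, a fold of 6.94 (6.23 to 7.76) over iCD8a and 7.77 (6.94 to 8.72) over ILC1. Apoa4, a chylomicron apolipoprotein, stood at 7.10 CPM, 6.0 CPM and 53.4 CPM. Apob, the scaffold of chylomicrons, and Mttp, the protein that loads lipid onto it, were 6.06-fold and 8.38-fold higher in CD11b+ than in iCD8a. Apoc3 had only 9, 14 and 143 reads and stayed just under 5 CPM at 4.69 CPM in CD11b+, with a fold of 11.3 (5.78 to 25.2) over iCD8a. The 7 genes summed to 44.1 CPM in iCD8a and 36.1 CPM in ILC1, against 308 CPM in CD11b+, and 6 of the 7 were counted as higher in CD11b+ in each comparison.

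Among brush border digestive enzymes, 5 of 6 were counted as higher in CD11b+ in each comparison. Alpi, intestinal alkaline phosphatase, stood at 2.63 CPM in iCD8a and 2.80 CPM in ILC1, against 26.4 CPM in CD11b+. Sis, which encodes sucrase-isomaltase, stood at 3.23 CPM, 3.92 CPM and 23.8 CPM, and the lactase gene Lct at 1.20 CPM, 1.13 CPM and 10.6 CPM. The meprin subunit gene Mep1b stood at 2.49 CPM, 2.61 CPM and 19.8 CPM, while its partner Mep1a had 8, 10 and 70 reads and was too low to be counted. Folds over iCD8a of these 5 genes ran from 6.22 for Mep1a to 10 for Alpi.

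Anpep stood far above that range. This gene encodes aminopeptidase N, a brush border peptidase that is also known as the myeloid surface antigen CD13. It stood at 16.8 CPM (364 reads) in iCD8a and 14.6 CPM (323 reads) in ILC1, against 477 CPM (14556 reads) in CD11b+. The folds were 28.4 (25.6 to 31.6) and 32.8 (29.3 to 36.7), the largest of the 44 in both comparisons. Between iCD8a and ILC1 Anpep was close to level, at a fold of 1.15 (0.990 to 1.34).

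The promoters of Sis, a gene with a typical fold, and of Anpep, the gene with the largest, are shown because they differ in base composition and in the motifs they hold. They are the 250 bases before 1 transcription start per gene in RefSeq (GRCm38.p6), written 5′ to 3′ on the strand of the gene. Whether the sorted cells or enterocytes use that start was not examined, nor were other starts of these genes. The sources used here do not name the build behind the counts. Sis lies at chr3:72967864-72968113 on the minus strand and Anpep at chr7:79848211-79848460 on the minus strand. Capitals mark matches on either strand to TATAAA (the TATA box), CAAAG (the core of an HNF4 site), GTTAAT (part of an HNF1 site), and TTTATG or TTTATT (cores bound by CDX2).
Sis: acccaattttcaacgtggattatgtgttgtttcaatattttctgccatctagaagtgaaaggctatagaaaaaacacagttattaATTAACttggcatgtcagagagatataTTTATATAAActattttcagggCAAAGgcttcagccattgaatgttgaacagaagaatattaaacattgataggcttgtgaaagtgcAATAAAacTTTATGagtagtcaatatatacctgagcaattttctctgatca
Anpep: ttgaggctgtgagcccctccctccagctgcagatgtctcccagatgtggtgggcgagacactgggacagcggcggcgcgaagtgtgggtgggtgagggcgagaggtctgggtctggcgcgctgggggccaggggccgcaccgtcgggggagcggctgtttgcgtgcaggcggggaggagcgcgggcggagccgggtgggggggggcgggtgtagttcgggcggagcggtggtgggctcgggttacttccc
The Sis window held 6 matches and 31.6% G and C, with 2 of the matches, to TATAAA on opposite strands, sharing letters. Those 2 lay 134 to 129 and 138 to 133 bases before the start, unlike the matches close to the start described below for Reg3b and Reg3g. The Anpep window held 0 matches and 72.8% G and C. Windows of Alpi and Apoa4, not printed, lay between these, with 2 matches and 54.4% G and C for Alpi and 1 match and 57.6% for Apoa4. Sis thus need not represent the other genes of the set, and a relation of these features to the fold was not tested.

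Mucus genes of goblet cells were all counted as higher in CD11b+, 7 of 7 in each comparison. Muc2, the gel-forming mucin of the gut, stood at 4.66 CPM in iCD8a and 6.94 CPM in ILC1, against 41.4 CPM in CD11b+, giving folds of 8.88 (7.25 to 11) and 5.96 (5.04 to 7.09). Fcgbp, a large mucus protein, stood at 36.2 CPM, 49.0 CPM and 257 CPM, with folds of 7.11 (6.61 to 7.66) and 5.24 (4.92 to 5.59). Both were somewhat higher in ILC1 than in iCD8a. The transmembrane mucin gene Muc13 stood at 9.55 CPM, 10.4 CPM and 81.5 CPM. Tff3, a trefoil peptide secreted with mucin, stood at 8.90 CPM, 9.20 CPM and 59.7 CPM, and Zg16, a mucus lectin, at 14.7 CPM, 12.8 CPM and 81.8 CPM. Agr2, a disulfide isomerase needed for mucin folding, and Spink4, a goblet cell protease inhibitor, were 7.5-fold and 7.26-fold higher in CD11b+ than in iCD8a.

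Antimicrobial genes had the largest summed CPM of any role group in ILC1 and CD11b+, not scaled for gene length. They summed to 139.9 CPM in iCD8a and 124.8 CPM in ILC1, against 1054 CPM in CD11b+, and 6 of 6 were counted as higher in CD11b+ in each comparison. Reg3b and Reg3g encode secreted C-type lectins that act on bacteria near the mucosa. Reg3b stood at 60.1 CPM in iCD8a and 46.1 CPM in ILC1, against 409 CPM in CD11b+, with folds of 6.80 (6.43 to 7.21) and 8.87 (8.32 to 9.46). Reg3g stood at 37.3 CPM, 26.6 CPM and 245 CPM, with folds of 6.58 (6.12 to 7.09) and 9.21 (8.47 to 10). Per read, Reg3b was 1.61 times Reg3g in iCD8a, 1.73 times in ILC1 and 1.67 times in CD11b+, ratios whose counting intervals overlap.

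The Reg3b and Reg3g promoters are shown because the genes kept this ratio in all 3 libraries and have related upstream sequence. Reg3b lies at chr6:78370635-78370884 on the plus strand and Reg3g at chr6:78468875-78469124 on the minus strand, with windows, build and capitals as above.
Reg3b: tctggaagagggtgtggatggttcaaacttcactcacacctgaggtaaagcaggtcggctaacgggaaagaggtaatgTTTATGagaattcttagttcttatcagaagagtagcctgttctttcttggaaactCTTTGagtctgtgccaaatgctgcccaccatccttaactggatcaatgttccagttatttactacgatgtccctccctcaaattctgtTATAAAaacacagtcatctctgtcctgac
Reg3g: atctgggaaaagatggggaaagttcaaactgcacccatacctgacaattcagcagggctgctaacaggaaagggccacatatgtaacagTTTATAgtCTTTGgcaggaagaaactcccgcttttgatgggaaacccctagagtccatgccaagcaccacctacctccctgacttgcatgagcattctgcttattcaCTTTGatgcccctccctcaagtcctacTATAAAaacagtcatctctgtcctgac
Aligned end to end, the 2 windows were identical at 173 of 253 columns (68.4%). Each held a TATAAA match close to the start, 29 to 24 bases before it in Reg3b and 27 to 22 bases before it in Reg3g. The Reg3b window also held TTTATG, and the Reg3g window did not. A relation of the upstream sequences to the read ratio was not tested. Other pairs, described below, also had ratios whose counting intervals overlap across the libraries.

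The other defence genes were also higher in CD11b+. Dmbt1, a scavenger receptor-like protein that binds bacteria, stood at 16.1 CPM, 17.9 CPM and 141 CPM, and Pigr, which carries polymeric IgA across the epithelium, at 14.5 CPM, 16.2 CPM and 116 CPM. Reg1 was low, at 1.29 CPM, 1.44 CPM and 7.47 CPM, with a fold of 5.79 (3.90 to 8.90) over iCD8a.

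Lyz1, the lysozyme of Paneth cells, stood at 10.7 CPM (231 reads) in iCD8a and 16.5 CPM (366 reads) in ILC1, against 137 CPM (4170 reads) in CD11b+. Its fold over iCD8a, 12.8 (11.2 to 14.7), was the largest after that of Anpep, and its fold over ILC1 was 8.28 (7.44 to 9.24). Lyz2, the near-identical lysozyme gene of myeloid cells, stood at 7.10 CPM, 250 CPM and 4479 CPM. Reads of Lyz2 were 0.667 times those of Lyz1 in iCD8a, 15.2 times in ILC1 and 32.8 times in CD11b+. The genes share 16.1% of the 50-base stretches of Lyz1 transcripts, so the Lyz1 level is uncertain where Lyz2 is abundant.

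Guanylin, enteroendocrine and tuft cell genes had the lowest summed CPM of any role group in CD11b+, 45.4 CPM, beside 19.8 CPM in iCD8a and 13 CPM in ILC1, and 1 of 4 was counted as higher in CD11b+ in each comparison. Guca2a and Guca2b, the peptides guanylin and uroguanylin that regulate fluid secretion, had 17 and 30 reads in iCD8a, 14 and 21 in ILC1, and 115 and 261 in CD11b+. Their folds over iCD8a were 4.81 (2.87 to 8.54) and 6.18 (4.23 to 9.35), and of this pair only Guca2b reached 5 CPM. Dclk1, a tuft cell marker, had 1, 1 and 9 reads, so its fold of 6.39 over iCD8a had an interval of 0.886 to 280 and says little.

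Chga, the chromogranin of hormone granules, stood out by a small fold. It stood at 17.6 CPM (382 reads) in iCD8a and 11.4 CPM (253 reads) in ILC1, against 32.8 CPM (1000 reads) in CD11b+, giving folds of 1.86 (1.65 to 2.10) and 2.87 (2.50 to 3.31). Chga was set beside 16 other enteroendocrine genes. Over the 14 of them at 1 CPM or more, the median log2 ratio was 1.31 over iCD8a and 1.76 over ILC1, beside 2.90 and 2.91 for the epithelial genes above, and 3 of the 16 were counted as higher in CD11b+ in each comparison. Chgb, another chromogranin, stood at 33.5 CPM, 28.5 CPM and 79.0 CPM, with folds of 2.36 (2.17 to 2.56) and 2.77 (2.54 to 3.03). The hormone genes were not uniform: Ghrl, which encodes ghrelin, stood at 1.34 CPM, 2.25 CPM and 24.7 CPM, 18.4-fold and 10.9-fold higher, and Cck, which encodes cholecystokinin, at 2.08 CPM, 0.857 CPM and 17.9 CPM. Rfx6, a transcription factor of endocrine cells, had 7, 1 and 6 reads.

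Among metabolic enzymes and small proteins, 3 of 4 were counted as higher in CD11b+ than in iCD8a and 4 of 4 than in ILC1. Cps1, which commits ammonia to the urea cycle, stood at 2.54 CPM in iCD8a and 3.65 CPM in ILC1, against 26.3 CPM in CD11b+. The glutathione peroxidase gene Gpx2 stood at 2.58 CPM, 2.66 CPM and 20.6 CPM, and Phgr1 at 1.01 CPM, 0.857 CPM and 8.39 CPM. These 3 were 7.99-fold to 10.4-fold higher in CD11b+ than in iCD8a. The fourth, 2200002D01Rik, was lower in ratio, at 4.80 CPM, 3.07 CPM and 12.5 CPM, with folds of 2.60 (2.08 to 3.26) over iCD8a and 4.06 (3.13 to 5.34) over ILC1. In GENCODE M21, 23.1% of its exon length overlaps Yif1b on the other strand, a gene at 17.0 CPM, 13.2 CPM and 24.9 CPM, and the sources used here do not state whether strand was used in counting.

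Between the lymphocyte libraries the epithelial genes were close to level. The median log2 ratio of iCD8a over ILC1 was 0.05 (interquartile range -0.16 to 0.27), beside 0.18 over all genes, and it changed sign to -0.09 with TMM scaling, which moved the all-gene median to 0.04. Only 22 of the 44 genes reached 5 CPM in either library and could be counted. Of these, Cdh17 alone was counted as higher in iCD8a (3.91% of 10188 genes were), and none as higher in ILC1 (4.52% were). With so few genes, these counts do not stand apart from the shares of all genes. The fold of the 39 summed genes was 1.02 (0.986 to 1.06), while the sum of all 44, Cdh17 included, gave 1.53. With TMM scaling the fold of the 39 turned to 0.932 (0.897 to 0.968). The interval of 32 genes held 1.02, and 36 of 44 folds lay within 1.5-fold of it.

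The sums of some role groups leaned to 1 side by more than counting error. The structural sum was 3.01-fold (2.87 to 3.17) higher in iCD8a. Cdh17 gave 4555 of its 6297 reads in iCD8a and 421 of 2139 in ILC1, and the median log2 ratio of the group was 0.09. The guanylin, enteroendocrine and tuft sum was 1.52-fold (1.31 to 1.77) higher in iCD8a. Chga gave 382 of its 430 reads in iCD8a and 253 of 289 in ILC1. Both sums stayed above 1 with upper-quartile scaling, at 2.62 (2.49 to 2.75) and 1.32 (1.14 to 1.54). The summed lipid genes were 1.22-fold (1.11 to 1.34) higher in iCD8a, and 1.06-fold (0.966 to 1.17) with upper-quartile scaling, with Fabp2 at 1.52 (1.19 to 1.94) and Apob at 1.56 (1.11 to 2.22). Reg3b and Reg3g also leaned to iCD8a, by 1.30 (1.20 to 1.42) and 1.40 (1.26 to 1.56), while the summed antimicrobial genes were 1.12-fold (1.06 to 1.18) higher in iCD8a and turned to 0.974 with upper-quartile scaling. Krt18, Chga and 2200002D01Rik were 1.65-fold, 1.54-fold and 1.56-fold higher in iCD8a. The summed mucus genes leaned the other way, at 0.841 (0.788 to 0.897) of the ILC1 level in iCD8a, with Muc2 at 0.671 (0.517 to 0.868) and Fcgbp at 0.737 (0.672 to 0.809). Lyz1 and Cps1 were also lower in iCD8a, at 0.646 (0.545 to 0.764) and 0.695 (0.484 to 0.991). With 1 library a population, these small differences have no measure of the spread between animals.

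**Figure D3:**
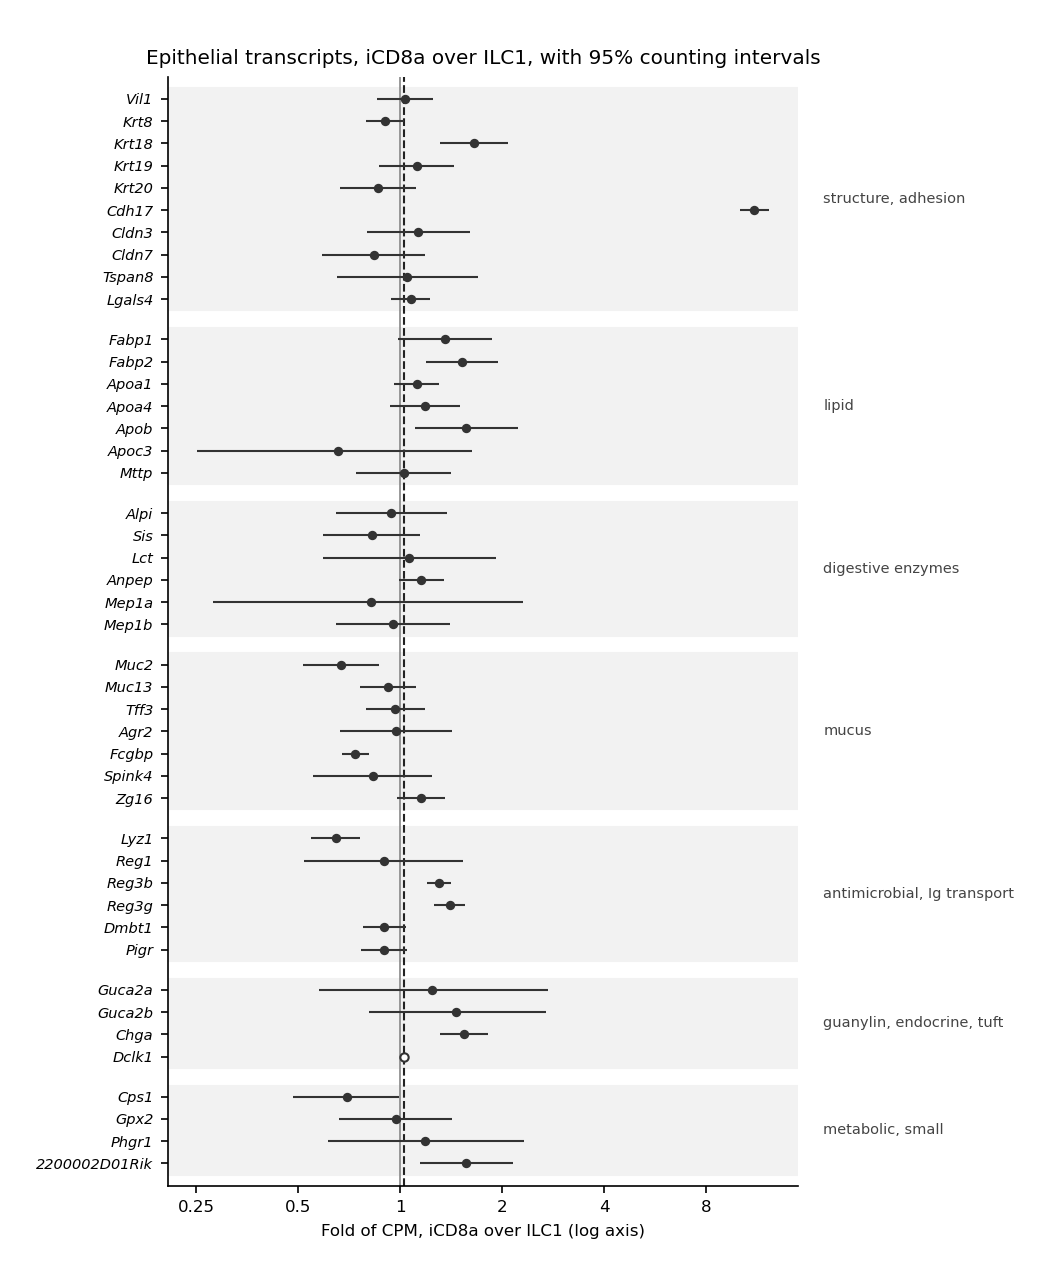
Fold of CPM in iCD8a over ILC1 for each transcript on a log axis, with 95% exact counting intervals as bars and Dclk1 as an open circle without its interval (1 read in each library). The dashed line is the summed fold of 39 genes, 1.02, and Cdh17 at 11.1 is the only gene more than 2-fold from it.

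The order of levels among the genes, taken per kilobase of exon, was similar in the 3 libraries. Reg3b ranked first in each, at 52.6 CPM per kilobase in iCD8a, 40.3 in ILC1 and 358 in CD11b+. Tff3 followed at rank 3, 2 and 2, with 18.1, 18.7 and 121 CPM per kilobase. The lowest 4 genes were Apob, Lct, Mep1a and Dclk1 in each library. Some genes changed place: Cdh17 held rank 2 in iCD8a and 13 in ILC1, against 25 in CD11b+, and Anpep 15, 17 and 4. Chga held rank 13, 14 and 27, and 2200002D01Rik 21, 26 and 32. Across the 44 genes Spearman's rho of CPM was 0.935 between CD11b+ and iCD8a, 0.962 between CD11b+ and ILC1 and 0.967 between iCD8a and ILC1. Across all genes at 1 CPM or more it was 0.797, 0.803 and 0.918. These describe genes that share a library and its depth, and genes are not independent replicates.

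The read ratios of Lyz2 to Lyz1, given above, differed widely between libraries, and Krt8 and Krt18 differed in their fold over iCD8a. For 3 other pairs with related products the ratios were closer. Apoa1 had 2.34, 2.48 and 2.16 reads for each read of Apoa4 in iCD8a, ILC1 and CD11b+. Fabp2 had 1.8, 1.61 and 2.01 for each of Fabp1, and Guca2b 1.76, 1.5 and 2.27 for each of Guca2a. The counting intervals of each of these 3 pairs overlapped across the 3 libraries.

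**Figure D4:**
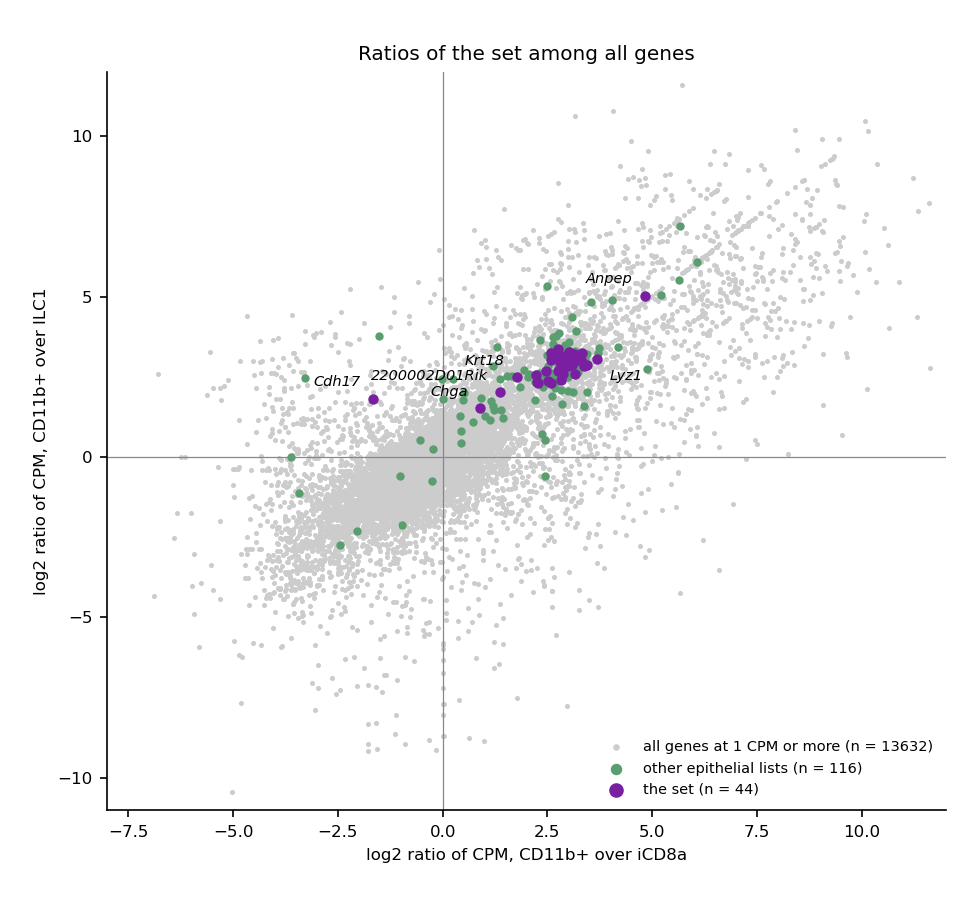
log2 ratio of CPM in CD11b+ over iCD8a (horizontal) and over ILC1 (vertical) for 13632 genes at 1 CPM or more (grey), 116 genes of other epithelial lists (green) and the 44 epithelial transcripts (purple); both axes share the CD11b+ library. Most purple points form a compact cloud near 2.90 and 2.91, with Cdh17 to the left of 0 and Anpep above and to the right.

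A wider group of 140 epithelial genes in 12 lists was examined alongside, of which 116 reached 1 CPM. Their median log2 ratios were 2.69 over iCD8a and 2.61 over ILC1, and 0.09 for iCD8a over ILC1. In CD11b+, 52 of the 140 were counted as higher than in iCD8a and 5 as lower, and 51 were higher and 3 lower than in ILC1. Between the lymphocyte libraries 6 were higher in iCD8a and 1 in ILC1. Of all genes at 5 CPM or more in either library, 12.1% were higher in CD11b+ than in iCD8a and 7.57% lower. Against ILC1 these shares were 12.4% and 6.6%, and between the lymphocyte libraries 3.91% and 4.52%. The counts of each list below stand beside these shares, and genes below 5 CPM in both libraries could not be counted.

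Several lists held genes of the absorptive enterocyte. Of the brush border cytoskeleton, 7 of 8 genes were higher in CD11b+ than in iCD8a and 6 of 8 than in ILC1. The motor gene Myo1a stood at 6.69 CPM, 8.52 CPM and 59.8 CPM, and the protocadherin genes Cdhr2 and Cdhr5 were 7.97-fold and 7.13-fold higher in CD11b+ than in iCD8a. Tmigd1 of that list had 54, 1 and 26 reads and so was highest in iCD8a, as Cdh17 was. Of 12 intestinal transcription factors, 5 were higher than in iCD8a and 6 than in ILC1, with a median log2 ratio of 2.87 over iCD8a. Hnf4a stood at 2.72 CPM, 2.34 CPM and 19.3 CPM, Creb3l3 at 3.14 CPM, 4.28 CPM and 24.9 CPM, and Vdr, the vitamin D receptor, at 15.5 CPM, 3.56 CPM and 38.2 CPM.

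Of 16 transporters, 7 were higher in CD11b+ in each comparison. The glucose transporter gene Slc5a1 stood at 2.63 CPM, 2.30 CPM and 21.7 CPM and the cholesterol transporter gene Npc1l1 at 2.63 CPM, 2.03 CPM and 20.9 CPM. Slc11a2, a metal transporter of many cells, was not counted as higher, at 31.6 CPM, 44.1 CPM and 26.4 CPM, and Cybrd1 had 18, 9 and 2 reads. Of 25 enzymes, 13 were higher in each comparison. Those with the highest CPM in CD11b+ were not all epithelial in use: Dgat1, a triglyceride synthase, stood at 907 CPM, 2010 CPM and 463 CPM and was counted as lower in CD11b+ than in ILC1, while Acsl5 was 1.35-fold and 1.74-fold higher in CD11b+. The peptidase gene Dpp4 stood at 54.8 CPM, 7.71 CPM and 310.0 CPM, and the peptidase gene Ace, chosen after its values were seen, at 3.87 CPM, 3.83 CPM and 262 CPM, a pattern shaped like that of Anpep.

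Of the 15 pan-epithelial genes, 5 were higher than in iCD8a and 6 than in ILC1. Spint1, a protease inhibitor, had folds of 50.4 (43.2 to 59.3) and 148 (114 to 196), at 7.43 CPM, 2.52 CPM and 374 CPM. Of 10 other Paneth cell genes, 5 were higher in each comparison, with medians of 2.73 and 2.72. Itln1 stood at 4.84 CPM, 5.50 CPM and 42.9 CPM. The defensin gene Defa24 stood at 8.81 CPM, 11.1 CPM and 58.2 CPM and Defa30 at 2.26 CPM, 3.25 CPM and 14.5 CPM, both uncertain because defensin genes have near-identical copies. Mptx1 had 1, 2 and 8 reads.

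Regional genes were sparse. Of 6 ileal bile acid genes, 2 were higher in CD11b+ in each comparison: Fabp6, the ileal bile acid binding protein, stood at 1.20 CPM, 0.721 CPM and 7.31 CPM, and the bile acid transporter subunit gene Slc51a at 0.784 CPM, 0.992 CPM and 6.33 CPM. Slc51b had 7, 8 and 69 reads, and the ileal genes Slc10a2 and Fgf15 had 4 reads each in CD11b+. Of 6 genes typical of colon, 1 was higher in each comparison, Slc26a3 at 0.554 CPM, 0.496 CPM and 5.05 CPM. Fxyd4 of that list had 0, 2 and 15 reads. Car1 had 1 read in all, in CD11b+, and Aqp8 and Hoxb13 had 0 reads in every library.

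The goblet, tuft and crypt lists held genes on both sides. Of 10 other goblet cell genes, 2 were higher and 2 lower in CD11b+ than in iCD8a, and 1 was higher than in ILC1. The lower ones, Creb3l1 and Klk1, were highest in iCD8a: Creb3l1 stood at 117.6 CPM, 9.60 CPM and 9.57 CPM, and Klk1 at 30.2 CPM, 0.541 CPM and 3.08 CPM. Clca1, a goblet cell secretory protein, stood at 4.61 CPM, 7.53 CPM and 28.4 CPM and Galnt12 at 23.8 CPM, 23.8 CPM and 32.3 CPM. Of 6 other tuft cell genes, none was higher in CD11b+ and Avil was lower than in iCD8a, at 397 CPM, 80.7 CPM and 36.8 CPM. Sh2d6 and Trpm5 of that list had 59 and 50 reads in CD11b+, and the tuft cell factor gene Pou2f3 had 0, 0 and 2 reads. Of 10 crypt genes, 2 were higher and 2 lower in CD11b+ than in iCD8a, and 1 was higher and 2 lower than in ILC1. Olfm4, a stem cell marker, stood at 1.48 CPM, 2.21 CPM and 14 CPM, and Slc12a2, an ion transporter, at 3.83 CPM, 14.3 CPM and 20.7 CPM. The Wnt target genes Axin2 and Rnf43 were lower in CD11b+ in both comparisons, at 32.5 CPM, 39.6 CPM and 5.97 CPM for Axin2 and at 102.3 CPM, 120.5 CPM and 24.6 CPM for Rnf43.

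**Figure D5:**
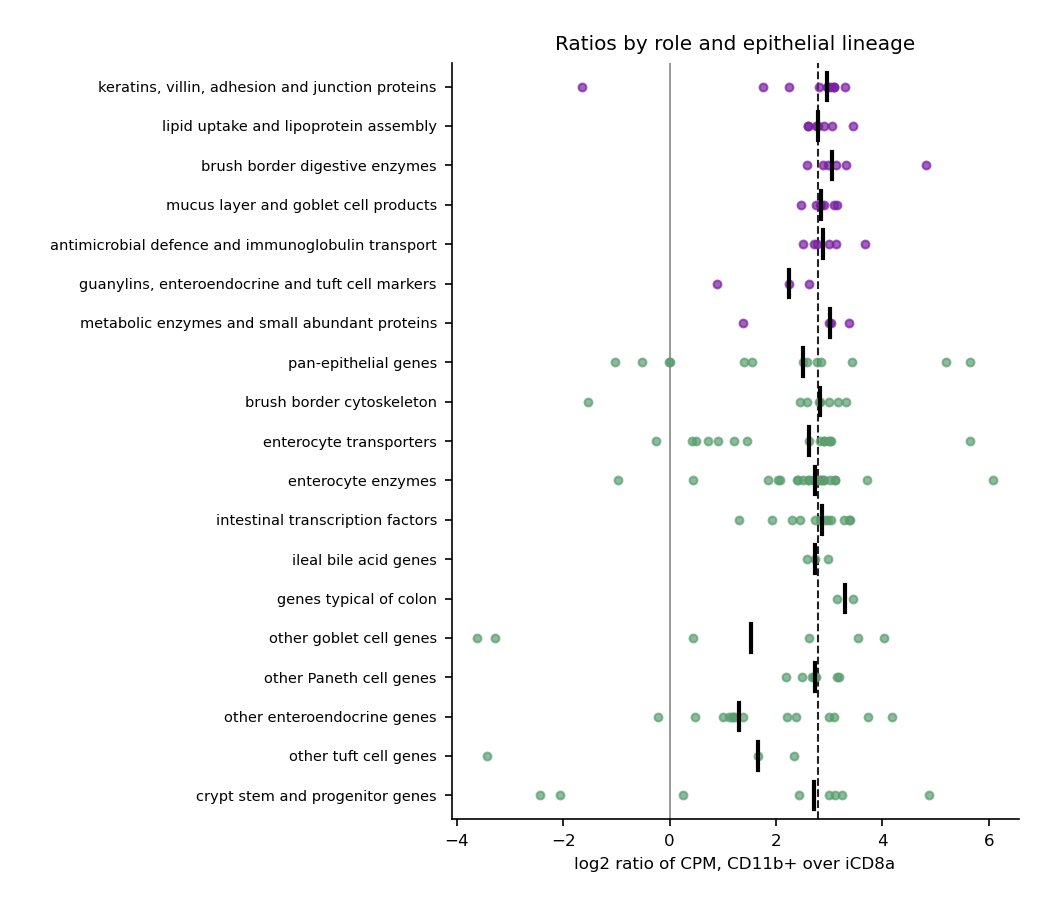
log2 ratio of CPM in CD11b+ over iCD8a for genes at 1 CPM or more, 1 row per role group of the 44 transcripts (purple) and per other epithelial list (green), with black bars at the list medians. The dashed line is the summed fold of 39 genes, and most medians lie near it, with other enteroendocrine genes at 1.31, other goblet cell genes at 1.53 and other tuft cell genes at 1.65 lower.

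Markers of other cells of the gut and its neighbours were low in all libraries, and their sums differed in direction. Markers of fibroblasts (6 genes) summed to 9.73 CPM in iCD8a and 1.58 CPM in ILC1, against 3.51 CPM in CD11b+, and those of endothelium (5 genes) to 18.5 CPM, 4.28 CPM and 10.4 CPM. Enteric glia markers (4 genes) summed to 2.49 CPM, 2.34 CPM and 1.25 CPM, and pancreatic acinar markers (7 genes) to 4.98 CPM, 4.24 CPM and 2.0 CPM, lowest in CD11b+. Smooth muscle markers (5 genes) summed to 0.138 CPM, 0.0902 CPM and 1.74 CPM, of which Cnn1 was at 0 reads in every library and Acta2 had 1, 1 and 44 reads. Erythroid markers (6 genes) summed to 0.692 CPM, 0.451 CPM and 2.36 CPM. Hepatocyte markers (4 genes) summed to 0.646 CPM, 0.361 CPM and 0.721 CPM, with Ahsg and Serpina1a at 0 reads and Alb, the gene of albumin, at 0, 0 and 3 reads. The part of these cells in the results was not tested.

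Markers of the sorted cells themselves moved on a different scale from the epithelial genes. Myeloid markers (6 genes) summed to 425 CPM in iCD8a and 472 CPM in ILC1, against 6720.3 CPM in CD11b+, with summed folds of 15.8 and 14.2 and median log2 ratios of 8.05 and 4.68. Itgam gave 394 CPM of the iCD8a sum. Csf1r, the macrophage growth factor receptor, stood at 1.57 CPM, 14.3 CPM and 887 CPM. Sort and lymphocyte markers (6 genes) summed to 8427 CPM, 4112 CPM and 1892 CPM. Among them is Ptprc, a marker of leukocytes in general, which at the levels given above made up most of the ILC1 and CD11b+ sums.

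Genes whose ratios resembled those of the epithelial genes were few. A protein-coding gene at 5 CPM or more in CD11b+ was taken as similar when both its log2 ratios lay near the summed folds of 6.95 and 7.11. The limit was 0.25 on the log2 scale, which 62 of 9736 genes met (0.637%). Epithelial genes were not left out of the 62. Within the same distance, with no minimum level, lay 10 of the 44 genes, whose own counts set these sums, and 15 of the other 140 epithelial genes. The 15 such genes with the highest CPM in CD11b+ outside every list were mt-Nd3, Mdh2, Samhd1, Tpd52, Plin2, Gsto1, Tnfrsf21, Ptgs1, Acer3, Lypd8, Rab31, Uevld, Ckmt1, Misp and Dpep2. The mitochondrially encoded gene mt-Nd3 stood at 128 CPM, 125 CPM and 1017 CPM, and the mitochondrial enzyme gene Mdh2 at 147 CPM, 116 CPM and 964 CPM. Lypd8, a protein of colonic enterocytes, stood at 10.1 CPM, 10.7 CPM and 72.2 CPM, 7.13-fold and 6.72-fold higher in CD11b+.

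RefSeq promoters were found for 35 of the 44 genes (38 windows of 250 bases, with 2 starts for each of 3 genes). Krt19, Cdh17, Apoc3, Mep1b, Tff3, Spink4, Zg16, Dmbt1 and Cps1 had no entry. TATAAA stood on either strand in 9 of the 38 windows (23.7%) and in 12.4% of all 32851 windows of the table. CAAAG stood in 57.9% against 48.6%, GTTAAT in 10.5% against 6.43%, TTTATG in 21.1% against 10.8%, and TTTATT in 18.4% against 18.1%. At least 1 of the CDX2 cores stood in 28.9% of the windows against 25.5% of all. The reverse of TATAAA, which is TTTATA, shares its first 5 letters with both CDX2 cores. A match of letters is a description of the window and not a bound site.

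Sequence shared with other genes bears on few of the 44. In GENCODE M21 transcripts, 36 of 44 genes shared no stretch of 50 bases with another gene. More than 5% was shared by Krt8 (26.9%, with Krt8-ps), Gpx2 (18.9%, with Gpx2-ps1), Lyz1 (16.1%, with Lyz2) and Fcgbp (8.55%, with 9530053A07Rik), whose counts are therefore uncertain. Exons of 7 of the 44 overlapped a gene on the other strand, among them Apoa4 (34.8% of its exon length, with Gm10680, at 0, 0 and 0.0328 CPM) and Mttp (7.36%, with Trmt10a, at 4.71 CPM, 5.23 CPM and 7.67 CPM).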

How the data were processed

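RNA-seq libraries of 3 sorted leukocyte populations, 1 each, were grouped by their cell type label. All titles carry 1 shared date. Sequencing on an Illumina HiSeq, alignment with TopHat and counting with HTSeq were the authors' steps, as series-level text records, and CASAVA 1.9 and TopHat2 are named in the submitters' processing notes. The deposited files hold raw counts per Ensembl gene, not normalized by the authors. The sources used here do not give the build, annotation, strand setting or counter version, and FPKM values were not used here. Depth ran from 21678113 to 30511296 gene counts, and the 5 rows naming no gene were left out.

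The 44 genes and the 28 lists (233 symbols) were chosen with earlier results of these data known. Symbols and exon lengths came from GENCODE M21, where 35449 of 37224 IDs matched. Folds are ratios of CPM by library total, with 95% exact conditional binomial (Clopper-Pearson) intervals, and sums have exact Poisson intervals. Both cover counting error only, since reads that carry no molecular identifier need not be independent molecules. The limit for a gene without a read is 3 counts. Median log2 ratios used a prior count of 0.5. With 1 library per group there are no residual degrees of freedom, so edgeR 4.0.16 and DESeq2 1.42.0 (R 4.3.3) gave scaling factors only, as alternatives.

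Named were all 44 genes, and in each other epithelial list the 3 genes with the highest CPM in CD11b+ and the gene highest in iCD8a or ILC1 relative to CD11b+. Other list genes named, such as Klk1, Pou2f3, Car1, Aqp8 and Hoxb13, were chosen after their values were seen. Not every gene covered by this choice is reported here. The 15 similar genes were those with the highest CPM in CD11b+ outside the lists. Computations used Python 3.11.15, numpy 2.4.6, pandas 2.3.3 and scipy 1.17.1, and figures matplotlib 3.10.9. The rule for counting a gene as higher and the fold intervals were tested on simulated Poisson counts, which hold counting error only. Alternatives were other scalings, thresholds, minimum levels and prior counts, thinning to the smallest library, and leaving out mitochondrially encoded genes or the most abundant members.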

Additional observations from a re-analysis of the deposited data

Results flagged for a closer look

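Reads outside the gene rows are a signal that the comparisons do not use. Reads with more than 1 alignment made up 26.9% of the deposited total for iCD8a, 34.5% for ILC1 and 30.5% for CD11b+. Reads that fell in no gene were 9.31%, 11% and 8.56%. Neither share was highest in CD11b+, where the epithelial transcripts were highest. The part of these shares in the epithelial levels was not tested.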

How the results depend on the processing

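No paired analysis was possible because each population had 1 library. Of 63 values under another setting, 19 moved, meaning a count by over 1.5 times, or a median or sum by more than the counting error of the summed reads. That margin is narrow for medians and wide for counts: at a minimum of 20 CPM, 28 genes were higher in CD11b+ than in iCD8a and 29 than in ILC1, and these are not among the 19. The median log2 ratio of CD11b+ over iCD8a was 3.13 with TMM, 3.16 with DESeq2 and 3.12 with upper-quartile scaling, 2.87 with a prior count of 2, and 3.02 without mitochondrially encoded genes. Over ILC1 it was 3.01 with TMM, 3.02 with DESeq2, 2.96 at a minimum of 20 CPM, and 3.03 without mitochondrially encoded genes. The iCD8a over ILC1 median turned to -0.089 with TMM, -0.11 with DESeq2 and -0.16 with upper-quartile scaling. At a fold of 8 with a near bound of 4, 14 genes were higher in CD11b+ than in iCD8a and 17 than in ILC1, since the typical fold lies below 8. Without mitochondrially encoded genes the summed levels were 408 CPM in ILC1 and 3530.2 CPM in CD11b+. Without each library's own 3 most abundant genes the sums were 303 CPM, 278 CPM and 2051 CPM. TMM and DESeq2 added Krt18 and Apoc3 to the genes higher in CD11b+ than in iCD8a and Apoc3 to those higher than in ILC1, and removed none. Depth limits Dclk1, Apoc3, Mep1a and Guca2a, whose intervals are wide. The spread between animals was not measured.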
